A study of Mus musculus with 3 samples.

Results

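The 9 genes described here, Cpt1a, Cpt2, Acadm, Acadl, Acadvl, Hadha, Hadhb, Etfdh and Bdh1, encode enzymes of mitochondrial fatty acid oxidation and ketone body synthesis. They were taken by name from the 22367 protein-coding genes of the mouse annotation used. RARα peaks and RXRα signal were read within 10 kb of each gene start and over the gene body. Chromatin was prepared from liver of C57BL/6 mice, which were male, wild type and 3 months old according to the labels, with no stated treatment. There were 3 libraries, 1 precipitated with an antibody against RXRα, 1 with an antibody against RARα and 1 of input chromatin that was not precipitated. No library had a replicate, so no difference was tested. Whole liver was used, so binding in fewer cells and weaker binding in each cell cannot be told apart. As a check of the tissue, 6 of 6 hepatocyte marker genes and 1 of 6 marker genes of other tissues (Gfap) had a RARα peak, with the same counts for an RXRα region.

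In the liver, fasting raises the supply of fatty acids, which are carried into mitochondria as carnitine esters, shortened by β-oxidation and in part released as ketone bodies. RARα and RXRα are nuclear receptors. RARα responds to retinoic acid and binds DNA together with RXRα, and RXRα also serves as the partner of PPARα, LXR and FXR, of which PPARα is the best known activator of fatty acid oxidation genes. Such dimers bind direct repeats of a short half-site, named DR1 to DR5 after the number of bases between the half-sites.

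At the 9 genes, the sequence under the strongest RXRα signal was examined first. An RXRα region is a run of 32 bp bins where the RXRα coverage was at least 20 times the input, the input being taken as no lower than its genome mean of 0.603 per bin. Each region was placed at its highest bin, the bin with the most RXRα reads. Offsets are given from the gene start with negative values upstream. The RXRα ratio of a region is the largest of any of its bins, which need not be the highest bin. Windows with 100 bp on each side of the centre of the highest bin are shown for 4 genes, 5′ to 3′ on the strand of the gene, on the NCBI37/mm9 build. Cpt1a and Etfdh are shown because the window held a DR1, whose half-sites are in capitals. Acadm and Acadl are shown because their RXRα ratios were also over 100 (129.992 and 107.856) with no DR1, and there the capitals mark single half-sites on either strand.
Cpt1a, chr19:3320204-3320404, plus strand: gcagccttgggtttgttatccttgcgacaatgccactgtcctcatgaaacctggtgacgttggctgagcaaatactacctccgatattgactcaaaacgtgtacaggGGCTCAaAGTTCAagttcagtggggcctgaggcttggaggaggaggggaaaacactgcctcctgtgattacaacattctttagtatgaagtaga
Etfdh, chr3:79432140-79432340, minus strand: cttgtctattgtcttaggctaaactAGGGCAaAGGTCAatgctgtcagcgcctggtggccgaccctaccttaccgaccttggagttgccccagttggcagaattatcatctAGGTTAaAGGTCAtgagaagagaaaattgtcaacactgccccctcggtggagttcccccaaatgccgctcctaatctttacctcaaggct
Acadm, chr3:153607820-153608020, minus strand: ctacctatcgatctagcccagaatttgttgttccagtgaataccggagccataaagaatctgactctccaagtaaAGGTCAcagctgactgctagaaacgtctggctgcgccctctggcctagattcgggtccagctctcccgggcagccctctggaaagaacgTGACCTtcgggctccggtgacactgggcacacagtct
Acadl, chr1:66909292-66909492, minus strand: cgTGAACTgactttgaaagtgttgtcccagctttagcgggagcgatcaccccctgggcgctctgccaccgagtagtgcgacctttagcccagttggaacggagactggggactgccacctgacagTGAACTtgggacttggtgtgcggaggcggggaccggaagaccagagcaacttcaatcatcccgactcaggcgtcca

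A half-site was AGGTCA, or AGTTCA, or GGGTCA, or GGTTCA, and a direct repeat was a pair on the same strand with at most 1 mismatch over the 12 half-site bases, searched on both strands. The Cpt1a window lies upstream of the gene, and its repeat is centred 13 bp from the centre of the highest RXRα bin. A further AGTTCA follows it without a gap. In the Etfdh window, which lies in a non-coding exon of the gene, the nearer of the repeats (AGGTTAaAGGTCA) is centred 17 bp from the centre of the highest bin and the other (AGGGCAaAGGTCA) 69 bp from it. Each of the 3 repeats has an A between the half-sites. The Acadl window is intronic and the Acadm window lies upstream.

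Of the 28 RXRα regions within 10 kb of the 9 starts, 2 held a DR1 (7.14%), against 8.90% of the 15095 RXRα regions near any gene start and 2.24% of windows 500 bp away. DR5, the spacing classically recognised by RARα with RXRα, was also found in 2 of 28 windows, against 3.91% at all regions. These were AGGTGAtcaggAGTTCA at Cpt1a (chr19:3319666-3319682, plus strand, upstream) and GGGTCTccctcGGGTCA in an intron of Cpt2 (chr4:107595456-107595472, minus strand). Neither DR5 region had a co-localized RARα peak of any score. At the members' 18 RARα peaks a DR5 was found in 0, against 1.23% of all RARα peaks near a gene start. DR2, DR3 and DR4 were found in 1 window each (3.57%), against 5.2%, 3.29% and 4.66% at all RXRα regions. The DR2 was at Hadha, and the DR3 and DR4 overlapped each other in the first kb of Acadm. A single half-site without a mismatch lay in 23 of the 28 windows, against 62.2% of all RXRα regions and 37.3% of the flanking windows. The members' counts of DR1 were thus close to the share in all RXRα regions.

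RARα peaks were kept with a deposited score over 20. Within 10 kb of the start, 9 of 9 genes had such a RARα peak, beside 52.2% of all protein-coding genes. An RXRα region was present at 9 of 9 genes, beside 39.8% of all genes. A RARα peak co-localized with an RXRα region, overlapping it by at least 25% of the narrower interval, was present at 9 of 9 genes, beside 23.5% of all genes. Hadha and Hadhb start 86 bp apart in opposite directions and share every peak and region named here within 10 kb, so the 9 genes are 8 loci.

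Counted once each, the loci held 18 RARα peaks over the threshold and 28 RXRα regions. An RXRα region was co-localized with 14 of the 18 (77.8%), against 33.1% of all RARα peaks over the threshold near a gene start. Their median score was 34, against 36 for all such peaks. Their median RXRα enrichment, the mean RXRα signal over the mean input across the peak, was 13.7, against 4.53. With no score threshold it was 4.88 over 68 peaks, against 2.72 for all genes. The RARα scores at these genes were thus close to those of all such peaks, while the RXRα signal over them was higher, a difference that was not tested. The peaks were placed in introns (8), 5′ UTR exons (5), upstream sequence (4) and a coding exon (1), with peaks shared by Hadha and Hadhb placed relative to Hadha, and 12 of 18 had their summit within 1 kb of a member's start. Of the 28 RXRα regions, 14 were intronic and 12 upstream, and 12 lay within 1 kb. The largest bin ratio of a region had a median of 62.9, against 34.0 for all RXRα regions near a gene start.

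**Figure D1:**
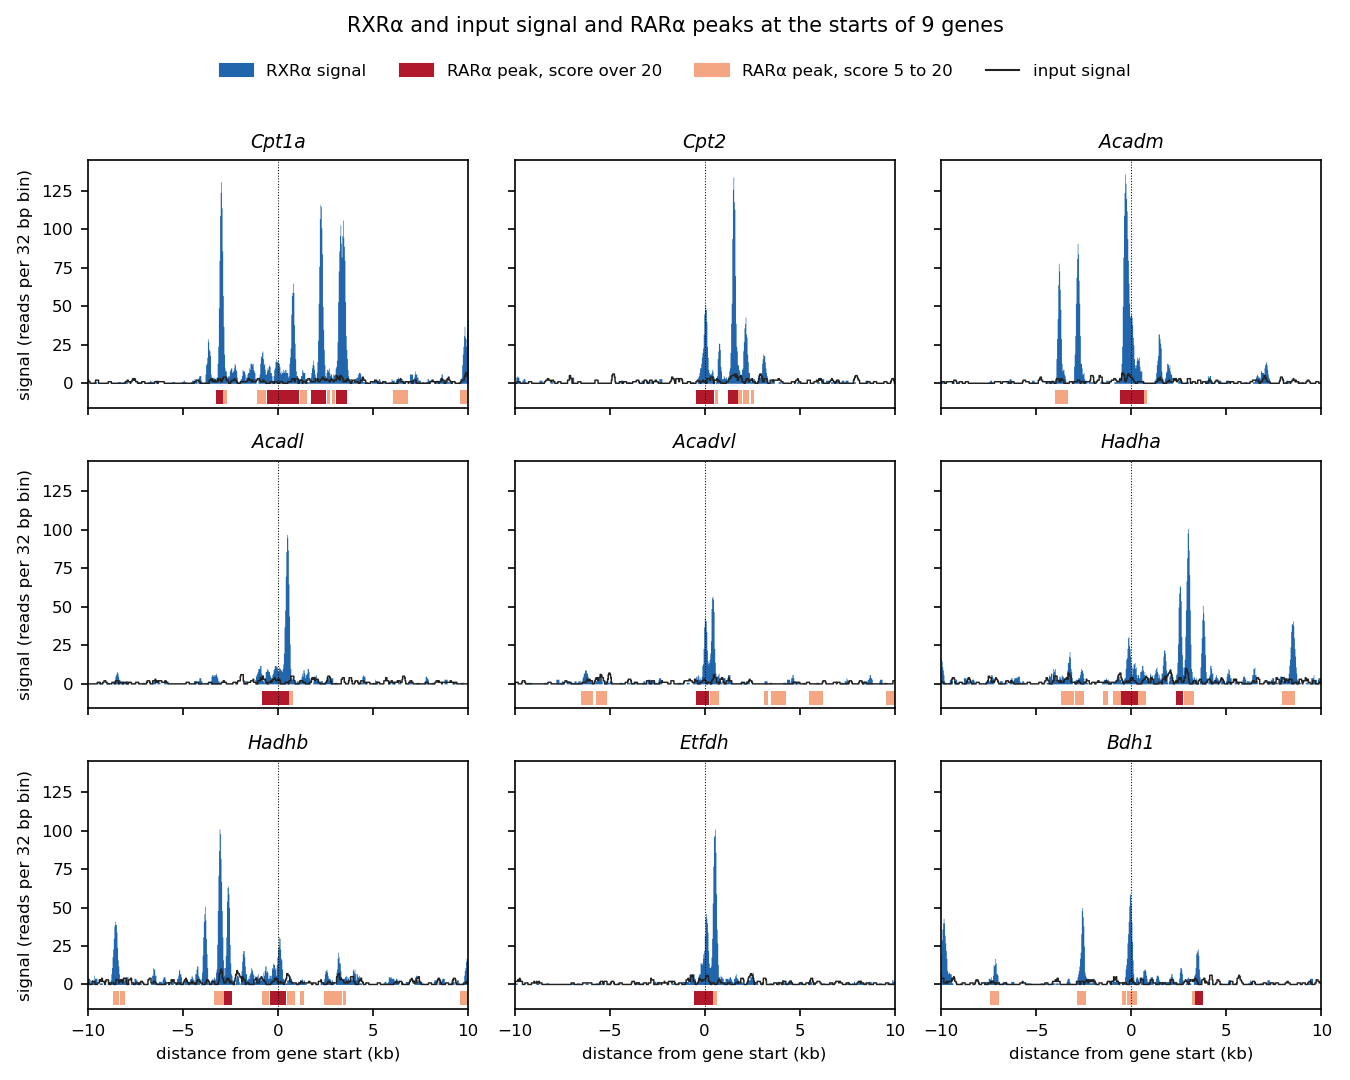
RXRα coverage (filled) and input coverage (line), in reads per 32 bp bin, against the distance from the gene start in kb for the 9 genes, with RARα peaks marked under the tracks. Cpt1a has 7 RXRα regions in the window, Acadl, Acadvl and Etfdh 1 each, and the Hadha and Hadhb panels show the same locus from opposite strands.

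The carnitine shuttle opens the pathway. Cpt1a (ENSMUSG00000024900.4, chr19:3323301-3385732, plus strand), the liver form of carnitine palmitoyltransferase 1, sits in the outer mitochondrial membrane and is the main control point for fatty acid entry. It had 6 RARα peaks and 7 RXRα regions within 10 kb, the highest counts of the 9 genes, and 5 of the peaks overlapped a region. The highest RARα score, 94, was at 84 bp (chr19:3323211-3323571), where RXRα was 17.1 times the input. The strongest RXRα region was elsewhere, at -2997 bp (chr19:3320161-3320384), with 131 RXRα and 1 input reads over the highest bin. The 512 bp around it held 173 RXRα and 8 input reads, a ratio of 21.6 (exact 95% interval 10.7 to 50.9). The RARα peak there had a score of 22, just above the threshold, and the printed Cpt1a DR1 lies in it.

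The first intron of Cpt1a held further strong regions. At 2219 bp the 512 bp ratio was 23.6 (11.2 to 59.5) from 165 RXRα and 7 input reads, next to a RARα peak of score 44. At 3403 bp it was 26 (13.5 to 57.6) from 234 and 9 reads, next to a RARα peak of score 33. These intervals overlap that of the upstream region, so the 3 sites were not ordered by their RXRα signal. A region at 30571 bp, far inside the gene, had a 512 bp ratio of 33.7 (11.2 to 166.0), with 3 input reads, and a co-localized RARα peak of score 21. Over the gene body and the 10 kb around the start there were 82 RARα peaks of any score, of which 9 passed the threshold. The 37 peaks from 34434 bp on, none of which passed it, were nearer to the start of Mtl5.

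Cpt2 (ENSMUSG00000028607.9, chr4:107576586-107596215, minus strand), which reforms acyl-CoA on the inner membrane, had the highest RARα score of the 9 genes. That peak (chr4:107595701-107596670) had a score of 114 with its summit at 90 bp, and RXRα over it was 8.51 times the input. The RXRα region with the highest ratio was 51 bp from it, at 39 bp in the 5′ UTR, with 51 RXRα and 1 input reads in the bin and 81 against 5 reads in 512 bp (16.2, 6.66 to 51.2). By RXRα reads alone another Cpt2 region was stronger. In the intron at 1511 bp the highest bin had 134 RXRα and 5 input reads and the 512 bp had 178 against 14 (12.7, 7.38 to 23.7), together with a RARα peak of score 28.

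The acyl-CoA dehydrogenases take the first oxidation step and differ in the chain length they accept. Acadm (ENSMUSG00000062908.6, chr3:153585321-153607596, minus strand), for medium chains, had 1 RARα peak over the threshold, of score 61 with its summit at 181 bp (chr3:153606911-153608190), and 4 RXRα regions. The strongest region was at -324 bp with 136 RXRα and 2 input reads in the bin and 247 against 14 in 512 bp (17.6, 10.3 to 32.7). It lay inside the wide RARα peak, 505 bp from the RARα summit. Farther upstream, a region at -2820 bp had 126 RXRα and 4 input reads (31.5, 12 to 117.4) and no RARα peak of any score, and one at -3812 bp had 97 and 6 reads and a RARα peak of score 18, below the threshold. Acadm thus had strong RXRα signal both with and without listed RARα binding.

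Acadl (ENSMUSG00000026003.5, chr1:66877413-66909851, minus strand), for long chains, had a single RXRα region, at 459 bp (chr1:66909249-66909600), with 97 RXRα and 1 input reads in the bin and 143 against 4 in 512 bp (35.7, 13.7 to 133.0). A RARα peak of score 28 coincided with it and had an RXRα enrichment of 102.5, the highest of the 18 peaks. Mean input over that peak was below the genome mean, which stood in for it. The adjoining RARα peak at 26 bp had the higher score, 37, but an RXRα enrichment of 3.91 and no co-localized region. At Acadl the order of the RARα scores was therefore the reverse of the order of the RXRα signal.

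Acadvl (ENSMUSG00000018574.8, chr11:69823685-69828913, minus strand), the membrane-bound enzyme for very long chains, also had 1 RXRα region, at 385 bp (chr11:69828513-69828896). Its highest bin had 56 RXRα and 2 input reads, and the 512 bp held 85 against 8 (10.6, 5.15 to 25.4). The RARα peak at 38 bp scored 84, with RXRα at 11.2 times the input over it. A DR1 with 1 mismatch, AGGTCAgTGGTCA, lay in the 5′ UTR (chr11:69828850-69828862, minus strand), centred 19 bp from that RARα summit. It lies inside the Acadvl RXRα region but outside the window around its highest bin, so the count for RXRα regions leaves it out. A DR1 was found at 2 of the members' 18 RARα peaks (11.1%), the other being that upstream of Cpt1a. The share was 2.57% for all RARα peaks near a gene start and 1.88% for their flanks.

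Electrons from these dehydrogenases pass through electron transfer flavoprotein to Etfdh (ENSMUSG00000027809.8, chr3:79407710-79432785, minus strand), which hands them to ubiquinone. Etfdh had the highest RXRα ratio of the 9 genes, 167.6, in its only region (chr3:79432097-79432448) at 545 bp. The bin had 0 input reads, so the genome mean stood in for the input, and the 512 bp held 144 RXRα and 3 input reads (48.0, 16.1 to 235.5). The RARα peak of score 59 (chr3:79432331-79432921) had its summit 405 bp away at 140 bp and overlapped the end of the region nearer the start. The RARα peak at the centre of the RXRα region, at 550 bp, had a score of 9 with an RXRα enrichment of 120.1. At the site of the printed Etfdh repeats the RXRα signal was high and the listed RARα score low.

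The mitochondrial trifunctional protein carries out the next 3 steps on long chains. Its α subunit, from Hadha (ENSMUSG00000025745.5, chr5:30444841-30481702, minus strand), holds the hydratase and dehydrogenase, and its β subunit, from Hadhb (ENSMUSG00000059447.7, chr5:30481788-30511133, plus strand), the thiolase. The strongest RARα peak of the pair (chr5:30481751-30482220) had a score of 62 with its summit in the 5′ UTR of Hadhb, at 117 bp, which is -203 bp from the Hadha start. RXRα over it was 8.32 times the input, and the region under it had 51 RXRα and 6 input reads in 512 bp (8.50, 3.65 to 24.2). RXRα regions with higher 512 bp ratios, but with intervals overlapping that one, lay inside Hadha. At 3030 bp there were 141 RXRα and 11 input reads (12.8, 6.95 to 26.3). At 3766 bp the bin ratio was highest, 84.6, from 51 RXRα and 0 input reads in the bin. The 512 bp there held 61 against 4 reads (15.2, 5.66 to 57.8). Neither region had a RARα peak over the threshold, and that at 3766 bp had none of any score. The Hadha region at 2550 bp, with 88 against 7 reads (12.6, 5.85 to 32.2), had one over the threshold. That at 8502 bp, with 69 against 4 reads (17.2, 6.44 to 65.1), did not. Inside Hadhb, beyond 10 kb, a region at 15220 bp had 110 RXRα and 4 input reads (27.5, 10.4 to 102.7), also without a RARα peak over the threshold.

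Bdh1 (ENSMUSG00000046598.8, chr16:31422366-31458987, plus strand) encodes the mitochondrial enzyme that interconverts acetoacetate and 3-hydroxybutyrate. It had the lowest top RARα score of the 9 genes, 28, in an intron at 3399 bp (chr16:31425711-31426130), and RXRα there was 6.13 times the input. Its strongest RXRα region lay at the promoter, at -78 bp (chr16:31422113-31422304), with 92 RXRα and 4 input reads in 512 bp (23.0, 8.68 to 86.2). The RARα peak there, at -66 bp, scored 19, and RXRα over it was 22.6 times the input. Another at -2621 bp scored 20, with an RXRα enrichment of 13.2. Both fell just short of the threshold, which asks for more than 20, and both overlapped an RXRα region. Of the 5 RXRα regions of Bdh1, 1 had a RARα peak over the threshold. That region had the lowest 512 bp ratio, 5.0 (2.05 to 14.7), from 30 against 6 reads. The region at -7150 bp had fewer RXRα reads, 23 against 3 (7.67, 2.32 to 39.9), and the intervals overlap.

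Over the 28 regions, the 512 bp ratio was between 5.0 and 48.0 (median 15.0). These ratios describe regions that were chosen for RXRα at 20 or more times the input and were read around the highest bin, both of which favour high values, and their intervals cover counting error only. Input was 0 in the highest bin of 7 of the 28 regions. The largest bin ratio came from a bin with 0 input at more of them, with the genome mean standing in. This held for the top ratios of Cpt2, Acadl, Acadvl, the Hadha and Hadhb locus, Etfdh and Bdh1. A RARα peak over the threshold was present at 15 of 28 regions (53.6%), against 39.4% of all RXRα regions near a gene start. Of the 28, 23 had a RARα peak of some score, and 65.6% of all regions had one. The members' RXRα regions without any listed RARα peak (5) were at Cpt1a, Cpt2, Acadm, Hadha and Bdh1.

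**Figure D2:**
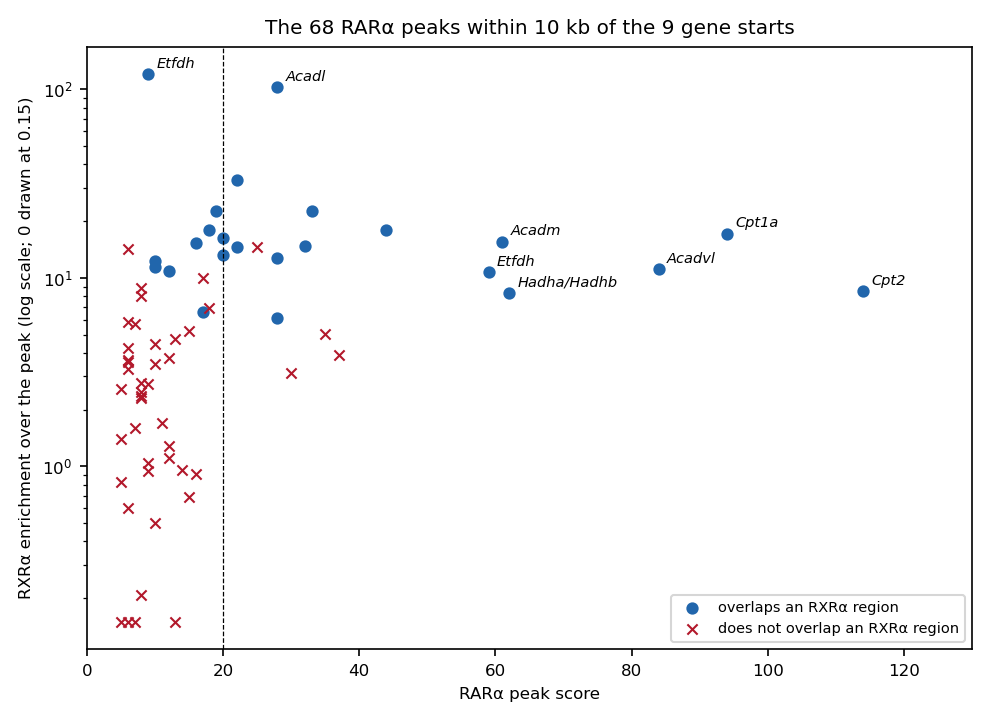
RXRα enrichment over each of the 68 RARα peaks within 10 kb of the 9 starts (log scale) against the RARα peak score, with the threshold of 20 as a dashed line, circles for peaks that overlap an RXRα region and crosses for the others. The most enriched peaks are those at Etfdh (score 9, enrichment 120.1) and Acadl (score 28, enrichment 102.5), and the highest score, 114 at Cpt2, has an enrichment of 8.51.

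The gene start itself gives a window that no binding value chose. In the 1024 bp around the start, RXRα reads exceeded input reads at 9 of 9 genes, with intervals above 1. The intervals also lay above 1 at 13 of the 13 other pathway genes. The share of all genes with such an interval was not counted. Of the 9 genes, the ratio was highest at Cpt1a, 19.0 (6.18 to 94.8) from 57 RXRα and 3 input reads. It was 16.9 (10.6 to 28.4) at Acadm from 321 and 19 reads, the deepest of the 9 windows and the one with the narrowest interval relative to its ratio. Bdh1 followed with 16.5 (7.32 to 46.0) from 99 and 6 reads. The dehydrogenases Acadl (15.1, 7.99 to 32.1, from 151 and 10 reads) and Acadvl (12.8, 6.95 to 26.3, from 141 and 11) lay next to each other. Etfdh had 11 (6.48 to 20.1) from 165 and 15 reads and Cpt2 8.82 (4.72 to 18.2) from 97 and 11. The overlapping windows of Hadha (7.89, 3.93 to 18.0, from 71 and 9 reads) and Hadhb (6.18, 3.25 to 13.0, from 68 and 11) had the lowest ratios. All 9 intervals share the values from 10.6 to 13.0. Overlap of separate intervals does not show that 2 ratios are equal, and differences between the genes were not tested. The median was 12.8, against 9.62 for the other pathway genes and 1.67 for all protein-coding genes.

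**Figure D3:**
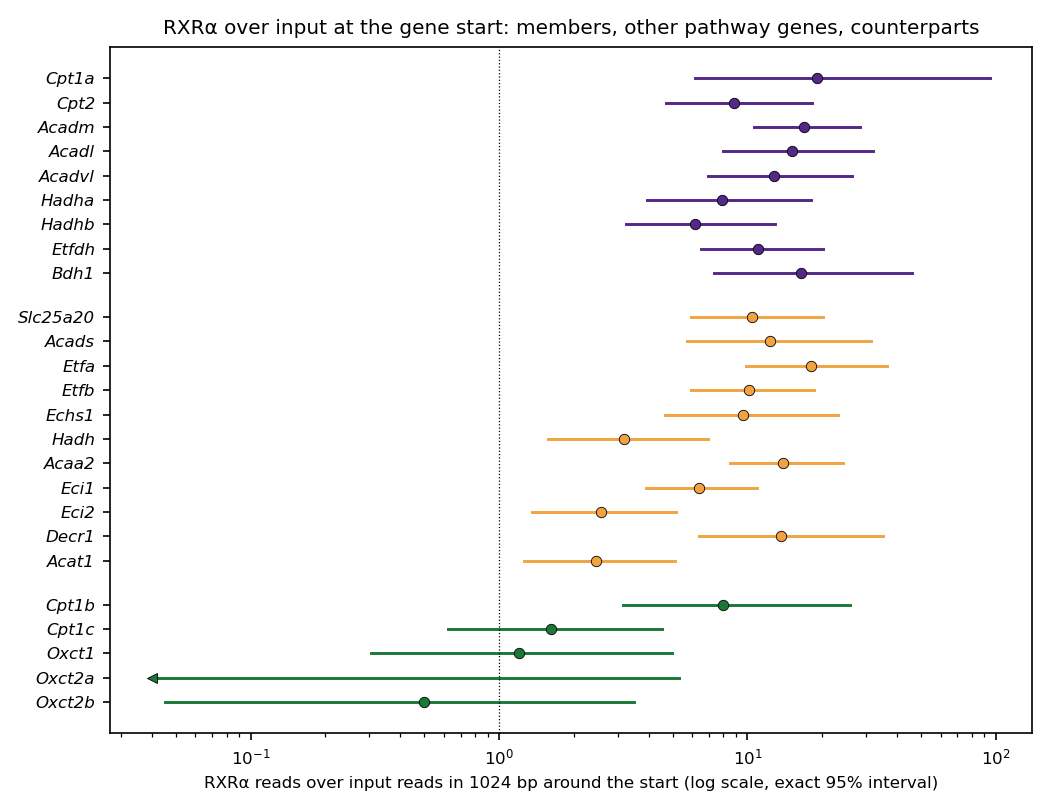
RXRα reads over input reads in 1024 bp around the gene start (log scale, points with exact 95% intervals) for the 9 genes, 11 other genes of the pathway and the counterparts used outside the liver, from top to bottom, with an arrow for a ratio of 0 at Oxct2a. The 9 genes lie between 6.18 and 19.0, the other pathway genes between 2.46 and 18.0, and Oxct1, Oxct2a, Oxct2b and Cpt1c have intervals that include 1.

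Among all genes, 7 of the 8 loci ranked higher by their top RXRα ratio than by their top RARα score. Bdh1 had a top RARα score above that of 54.7% of genes and a top RXRα ratio above that of 93.6%. Acadl was at 63.6% and 96.4%, Etfdh at 81.1% and 99.2%, and Acadm at 82.3% and 98.0%. Cpt2 went the other way, with 96.6% for RARα and 92.8% for RXRα. Across the 8 loci, Spearman's rho of the top RARα score against the top RXRα ratio was -0.34, as a description over loci of 1 library per antibody, where it was -0.36 across the other 13 pathway genes and 0.67 across all 22367 genes. The summits did not always coincide. Distances were taken from the strongest RARα summit to the highest bin of the RXRα region with the highest ratio. They were 51 to 505 bp at Cpt2, Acadvl, Etfdh, Acadl and Acadm. At Cpt1a, Bdh1 and the Hadha and Hadhb locus they were 3081 to 3969 bp. The bin with the most RXRα reads lay in another region at Cpt2 (1511 bp) and at Hadha (3030 bp).

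**Figure D4:**
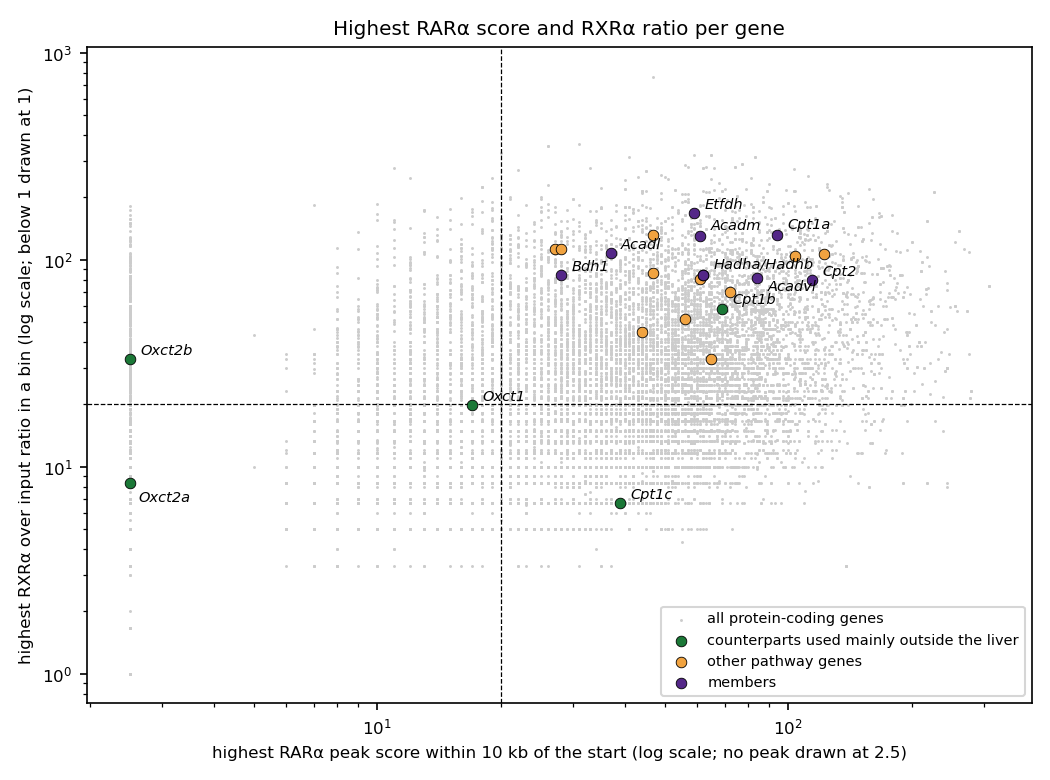
Highest RXRα over input ratio in a 32 bp bin against the highest RARα peak score within 10 kb of the start (both log scales), with all protein-coding genes in the background and the 9 genes, 11 other pathway genes and the counterparts marked. The 9 genes have RXRα ratios from 79.6 to 167.6 and RARα scores from 28 to 114.

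The other 13 genes of the pathway were read the same way. All 13 of 13 had a RARα peak over the threshold and an RXRα region, and 12 of 13 a co-localized pair, beside the shares of all genes given above. The highest RXRα ratios of the list were 131.0 at Eci2, an enoyl-CoA isomerase, at 8067 bp, and 112.8 at both Etfa, a subunit of electron transfer flavoprotein, and Hadh, the short-chain hydroxyacyl-CoA dehydrogenase. The Hadh region held GGGTCAaAGGTCA, a DR1 without a mismatch (chr3:130974289-130974301, plus strand, intron), centred 7 bp from the centre of the highest bin. None of the 28 windows searched at RXRα regions of the 9 genes held one.

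RARα scores of the list also reached high values. They were 122 at Acaa2, the thiolase for shorter chains, and 104 at Etfb, the partner of Etfa. Acaa2 had 7 RARα peaks over the threshold, 4 of them co-localized. The medians of the top values were alike in both lists. The median top RARα score was 62 for the 9 genes, 61 for the other 13 and 23 for all genes, and the median top RXRα ratio was 84.6, 81.0 and 14.9.

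Counterparts of these enzymes that work mainly outside the liver were read as well. Of 5 such genes, 2 had a RARα peak over the threshold, 2 an RXRα region and 1 both co-localized. These counts were close to the shares of all genes, 52.2%, 39.8% and 23.5%. Cpt1b, the muscle form of carnitine palmitoyltransferase 1, had a RARα peak of score 69 at -3971 bp and 5 RXRα regions, of which all but that at -202 bp were nearer to the start of a neighbouring gene (Chkb or C730034F03Rik). At its start there were 40 RXRα and 5 input reads (8.0, 3.16 to 26). The brain form, Cpt1c, had a RARα peak of score 39 at -8466 bp, nearer to Prmt1, and 13 RXRα against 8 input reads at its start (1.62, 0.624 to 4.52). Oxct1, which starts ketone body use in tissues other than liver, had 6 RXRα and 5 input reads (1.20, 0.305 to 4.97) and no RARα peak with a score over 17. Oxct2a, a testis form, had 0 RXRα and 2 input reads, an upper limit of 5.32, and Oxct2b, its close copy, had 2 and 4 (0.50, 0.0452 to 3.49). Reads shared by such copies may have been placed on either or left out, so their values are uncertain.

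The starts of the 9 genes were examined for base composition as well. The median GC content of the window around the start was 59.6%, against 55.4% for the other pathway genes and 54.7% for all genes. The median CpG observed over expected was 0.676, against 0.614 and 0.549. Bdh1 had the lowest values, 48.8% and 0.253, and Acadl the highest CpG ratio, 0.902. RXRα at the start was 16.5 times the input at Bdh1 and 15.1 times at Acadl, with overlapping intervals. RARα peaks of any score covered 36.2% of the Cpt1a gene body (peaks nearer to Mtl5 included), 32.6% of Acadvl and 5.07% of Acadl. The median was 13.4% over the 9 genes, 23.9% over the other pathway genes and 1.84% over all genes. At a score over 20 the coverage was 6.58%, 4.84% and 3.40% for these 3 genes. At Acadvl, the RARα peaks of lower score apart from that at 423 bp, beside the start, had RXRα enrichments between 0 and 4.73.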

How the data were processed

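RXRα ChIP, RARα ChIP and input chromatin from wild type mouse liver were sequenced, with 1 library each. The authors aligned the reads with Bowtie and called peaks with MACS. The signal that the authors deposited for RXRα and for input was whole-number coverage in 32 bp bins, and 1 read spans 5 bins. The signal corresponded to 9999939 RXRα and 9999292 input reads, and reads in a window are its summed coverage divided by 5 and rounded. The study states more mapped RXRα reads than the signal holds, and all read counts and intervals rest on the signal. Whether the tracks had been reduced to a common depth is not given in the sources used here. For RARα, the authors deposited a peak list with a score per peak. Its depth cannot be read from the list, and the score is not stated to be a fold over input. Coordinates fit NCBI37/mm9, although the methods name another build for the alignment, and gene starts were those of protein-coding genes in GENCODE M1.

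RXRα was scaled to the input total (factor 0.999935), and bins at 20 or more times the larger of local and mean input were joined within 200 bp. The score threshold of 20, the distance of 10 kb, the 20-fold limit and the 25% overlap follow the study's methods. Intervals of read ratios are exact (Clopper-Pearson), 95%, and cover counting error only. The 9 genes, the gene lists and the settings were chosen with earlier results of these data known. Named genes were the 9 genes, the 3 pathway genes with the highest RXRα ratio and the 3 with the highest RARα score with ties, any pathway gene lacking a peak or a region, and the counterparts outside the liver. Values of 2 pathway genes are not reported here one by one, and both are counted in the totals of the list. The steps were tested on simulated data. Python 3.11.15, numpy 2.4.6, pandas 2.3.3, scipy 1.17.1, pysam 0.24.0 and samtools 1.23.1 were used. Columns of false discovery rates were not used, and gene expression was not analysed here.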

Additional observations from a re-analysis of the deposited data

How the results depend on the processing

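No paired analysis was possible because there was 1 library per antibody and no result came from a test. With 1 library each, no value carries the variation between mice, and input reads of 3 to 19 around the 9 gene starts limit each ratio.

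With the nearest start only, 9 of 9 genes had a RARα peak, an RXRα region and a co-localized pair. The shares of all genes were 45.7%, 34.1% and 18.8%. With gene bodies added, the counts were again 9 of 9, beside 57.9%, 48% and 27.2% of all genes. An RXRα region was present at 9 of 9 with the genome mean as input, beside 52% of all genes, and without scaling, beside 40.2%. A co-localized pair was present at 9 of 9 at 5 times the input (47.7% of all genes) and at 10 times (38.9%). The count was also 9 of 9 with an overlap of 1 bp (23.7%) and with no score threshold (31.2%). At 30 times the input (14.9% of all genes), and with an overlap of 50% (23.2%), 8 genes had a co-localized pair, without Etfdh. Within 1 kb, 8 had a RARα peak and 8 a co-localized pair, without Bdh1, beside 40.9% and 15.8% of all genes. With a score over 50, 7 of 9 genes had a RARα peak, without Acadl and Bdh1, beside 24.6% of all genes. Of the other 13 pathway genes, 8 had a peak and 6 a co-localized pair, the latter beside 10.9% of all genes. With a score over 100, the counts were 1 of 9 (Cpt2) and 4 of 13, beside 4.86% of all genes. With no score threshold, the median RXRα enrichment was 4.88. A DR1 with no mismatch was found in 0 of the 28 windows at RXRα regions, beside 1.37% at all regions. The DR1 share lay above that of all regions at 10 times the input (4 of 49, 8.16%, beside 7.14%) and in windows with 50 bp on each side (2 of 28, 7.14%, beside 5.82%). It lay below at 30 times the input (2 of 21, 9.52%, beside 10.2%). With at most 2 mismatches, chosen after seeing the data, it also lay below (8 of 28, 28.6%, beside 36.5%).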
